A study of Sus scrofa with 32 samples.

Results

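The CD antigens are numbered cell surface molecules that were first defined by antibodies, and many of them serve as labels for a cell type. A piece of skeletal muscle holds, besides its fibres, the endothelium of its capillaries, fibroblasts and other connective tissue cells, resident macrophages and a small number of lymphocytes, and RNA from the whole tissue mixes them all. Genes were taken into the set when their symbol was CD, a number and at most 1 letter, and 47 of the 17930 gene identifiers in the deposited files met that rule. A symbol was found for 10836 identifiers (60.4%). Antigens whose genes carry another symbol (PECAM1, PTPRC, NT5E and the like) are not members, and 12 of 17 reference antigens fixed as anchors were matched: CD163, CD36, CD34, CD3E and CD81 were not, and are not analysed here. The members were read by lineage: 11 T and natural killer (NK) cell antigens, 6 of B cells, 7 of several kinds of leukocyte, 10 of macrophages and antigen presenting cells, 2 of endothelium, 3 of stromal cells and 8 of fibres and of many cell types.

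The study compared the loin muscle (longissimus dorsi) of wild type pigs aged 6 months in 4 breed groups of 8 libraries each, raised under similar housing and feeding. The groups were Landrace (L), a lean commercial breed, Dapulian (DPL), a Chinese indigenous breed, the cross Landrace x Dapulian (LDPL) and the cross Duroc x Landrace x Dapulian (DLDPL). Sex, batch and date are not among the labels. L libraries are numbered in a series of their own while the other 3 groups share one, so any separate handling of L cannot be told apart from the breed. Nothing in the labels says that the libraries came from separate animals, and p-values measure the spread between these libraries.

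Depth was 21.7 to 29.7 M uniquely mapped reads per library (M for 1000000), and the 47 genes took 0.0429% to 0.105% of them. The label of the tissue fits its defining genes: 7 fibre genes such as ACTA1 and ATP2A1 summed to 35400 to 96600 CPM per kilobase over all libraries. CPM is the count per 1000000 reads after scaling each library by TMM, and is used to compare a gene between libraries. Genes are compared with each other by RPKM, reads per kilobase of gene and per 1000000 reads of the library. The 13 mitochondrially encoded genes took a larger part of the reads in DPL (median 32.9%) than in L (median 20.0%) or the crosses (LDPL 23.3%, DLDPL 23.5%), and the part of this difference in the results below was not tested.

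In each of 3 groups 1 library was the highest for many of the leukocyte antigens. L replicate 2 was the highest of the 8 L libraries for 25 of the 36 members with enough reads to test (69.4%, against 23.5% of all genes tested). These were 8 of 9 T and NK antigens, 3 of 3 B cell antigens, 4 of 5 antigens of several leukocytes, 6 of 7 macrophage antigens and 3 of 3 stromal antigens, but 0 of 2 endothelial ones and 1 of 7 in the fibre and widely expressed group. DPL replicate 16 was the highest of its group for 18 of 36 members (50%, against 16.9% of all genes) and LDPL replicate 24 for 13 of 36 (36.1%, against 13.7%). Some genes outside the set went with this. In L replicate 2 the summed level of other macrophage genes was 151 CPM per kilobase against at most 54.4 in the other L libraries. For B cell genes it was 5.11 against 1.89 and for fat cell genes 23.8 against 8.34. In L the summed level of 9 other stromal genes did not follow the 3 stromal antigens: its highest value (702 CPM per kilobase) was in L replicate 7. In DPL that sum was highest in replicate 16 (618 CPM per kilobase), also the highest DPL library for 3 of 3 stromal antigens. Such a sum is weighted towards its most abundant genes. Comparisons with L are therefore given with all libraries and, where it changes the call, without L replicate 2. In bulk tissue, fewer cells of a type and less RNA per cell cannot be told apart.

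The most abundant members were tetraspanins and other proteins found on most cells, fibres included. CD63, a tetraspanin of late endosomes and exosomes, averaged 218 RPKM over the 32 libraries and alone made up 55.1% of the members' summed RPKM. CD164, a sialomucin of endosomes and the cell surface, followed at 54.2 RPKM, and CD151, a tetraspanin that binds laminin-receptor integrins, at 34.7. These 3 genes held 77.6% of the summed RPKM. The tetraspanins CD9 and CD82 averaged 19.3 and 11.5 RPKM, and no other member passed 10. By contrast 29 members lay under 1 RPKM, and they included every T cell antigen but CD247, the zeta chain of the T cell receptor complex. Too few reads for a test were found for 11 members, among them CD8B and CD28 of T cells, CD72 and CD79B of B cells, CD84 and CD101 of several leukocytes, CD80, CD207 and CD1E of antigen presenting cells, and CD177, a neutrophil antigen that the list had placed with the widely expressed ones. The 11 had 16 to 279 reads over all libraries. CD1E had 0 reads in DPL, which allows up to 0.0152 CPM over the group (3 counts; counting error only).

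**Figure D1:**
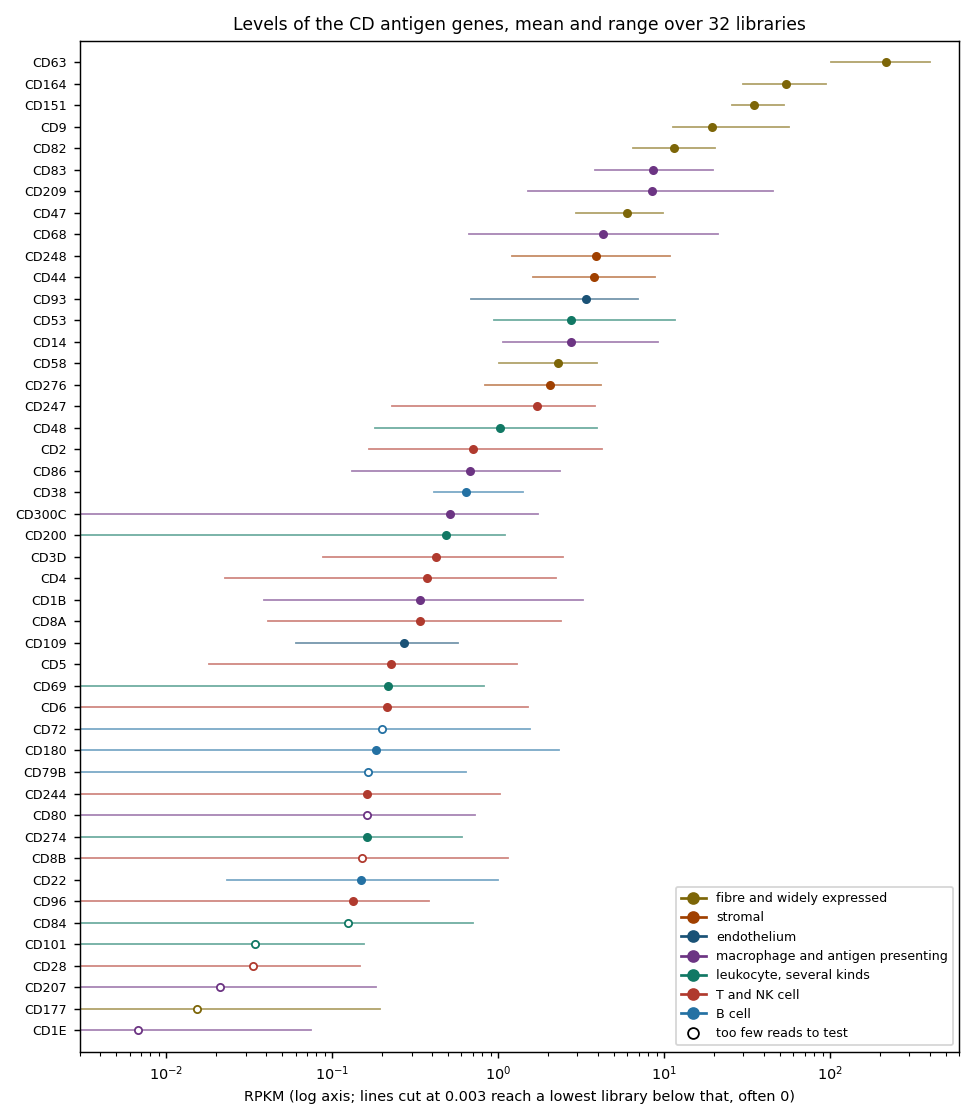
Level of 46 of the 47 CD antigen genes in RPKM on a log axis, with the mean over 32 libraries as a point and the lowest and highest library as a line, coloured by lineage. Widely expressed antigens led by CD63 (mean 218 RPKM) lie at the top, and most genes lie under 1 RPKM.

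Across the set, 12 of 36 tested members differed between DPL and L (33.3%, against 38.0% of all 12821 genes tested), 4 higher and 8 lower in DPL (background 19.1% and 18.9%). LDPL and L differed in 6 members (16.7%, against 29.6%), 3 higher and 3 lower (background 14.9% and 14.7%). DLDPL and L differed in 8 (22.2%, against 21.9%), 1 higher and 7 lower (background 11.6% and 10.3%). Counted either way, these shares were close to the background or below it. The 7 lower members in DLDPL were 5 T and NK antigens, CD1B and CD93. The 3 comparisons share the L libraries and are set side by side only. A gene counts as changed at an adjusted p under 0.05 in edgeR's quasi-likelihood test with Benjamini-Hochberg adjustment over all genes, which is the test behind every adjusted p below unless another tool is named.

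Between the other groups few members differed. LDPL differed from DPL in 1 member, which was higher (2.78%, against 2.85% of all genes; background 1.29% higher and 1.56% lower). DLDPL differed from DPL in 2, both higher (5.56%, against 4.1%; background 1.98% higher and 2.12% lower). DLDPL and LDPL differed in 0 members and 0 of 12821 genes by edgeR; at an unadjusted p under 0.05 there were 4 members. DESeq2 called 33 genes and 0 members, and limma on log2(RPKM + 1) called 0 of both. In the test over all 4 groups 12 members were called (33.3%, against 37.4%).

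**Figure D2:**
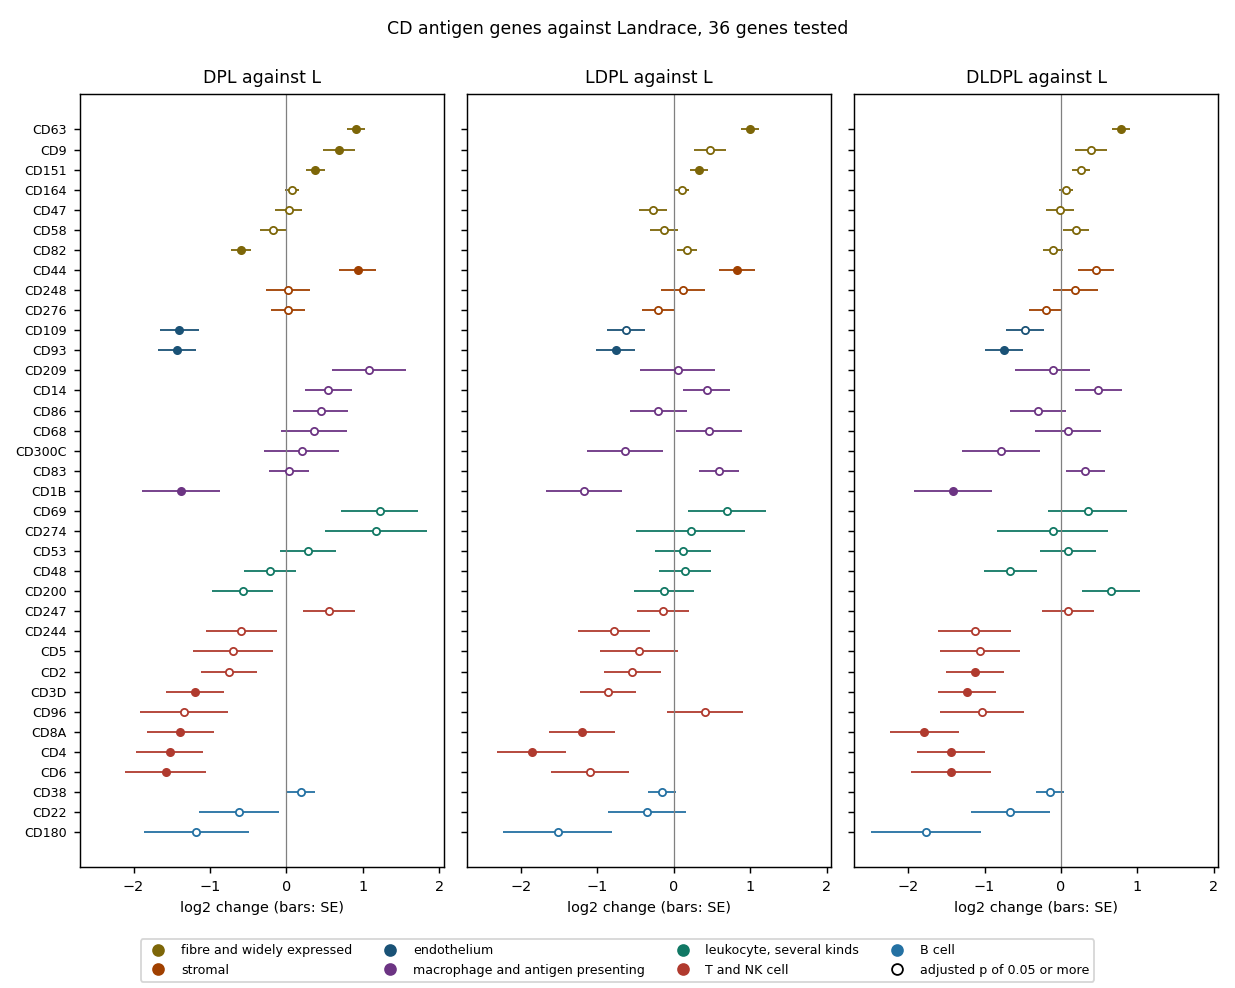
Log2 change of the 36 tested CD antigen genes against L, with 1 panel each for DPL, LDPL and DLDPL, bars of 1 standard error and colours by lineage. Filled points have an adjusted p under 0.05; CD63 is filled to the right and CD93, CD4 and CD8A are filled to the left in all 3 panels.

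Among the widely expressed antigens CD63 rose in every comparison with L. L libraries held 139 to 210 CPM (median 188), DPL 278 to 417 (median 307), LDPL 288 to 451 (median 348) and DLDPL 239 to 433 (median 299). All 24 libraries of the other groups therefore lay above the highest L library. The share of all genes tested with such a separation is not given here. The rise was 1.87-fold in DPL (log2 0.91 ± 0.12 SE, adjusted p = 5.28e-07), 2.0-fold in LDPL (log2 1.0 ± 0.12, adjusted p = 2.11e-07) and 1.72-fold in DLDPL (log2 0.79 ± 0.12, adjusted p = 1.68e-05). Among DPL, LDPL and DLDPL the differences in CD63 did not pass the test (log2 -0.21 to 0.09).

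CD82, a tetraspanin that restrains integrin-mediated migration and is found on satellite cells, was low in DPL. It ranged from 9.75 to 18.1 CPM there (median 10.6), against 14.5 to 21.4 in L (median 17.8), 16.6 to 27.6 in LDPL (median 19.8) and 13.5 to 21.3 in DLDPL (median 15.9). The DPL range overlapped each of the others only in its upper part. CD82 fell by 0.59 on the log2 scale in DPL against L (SE 0.13, adjusted p = 0.000599), and was higher than in DPL by 0.76 in LDPL (adjusted p = 0.0026) and by 0.49 in DLDPL (adjusted p = 0.0266). The last call was lost (adjusted p 0.0508 to 0.0676) without DPL replicate 11 or without DLDPL replicate 6, 25 or 29. Of 6 tested satellite cell genes, 3 were called lower in DPL than in L (against 18.9% of all genes). At an unadjusted p under 0.05 there were 5, 1 of them higher in DPL. The share of all genes at that threshold is not given here. The summed level of the 6 was 16.6 to 26.2 CPM per kilobase in DPL and 25.9 to 42.6 in L. In the crosses, where CD82 was not low, it was 17.1 to 27.1 in LDPL and 17.7 to 32.5 in DLDPL. The part of these genes in the CD82 difference was not tested.

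CD151 and CD9 rose by less. CD151 ranged from 37.9 to 56.9 CPM in L (median 48.8) and from 43.8 to 91.0 in DPL (median 61.1), and the ranges overlapped. Its changes were log2 0.38 ± 0.12 in DPL (adjusted p = 0.0134) and 0.33 ± 0.12 in LDPL (adjusted p = 0.0371). Neither was called by limma on log2(RPKM + 1) (adjusted p 0.173 and 0.0839), and the DPL call was lost with L replicate 2 and DPL replicate 16 left out together (log2 0.29, adjusted p = 0.0713). The LDPL call was lost (adjusted p 0.057 to 0.101) without L replicate 2, 5, 7 or 10 or without LDPL replicate 4, 8 or 24. CD9 ranged from 13.2 to 22.7 CPM in L (median 17.9) and from 15.7 to 67.3 in DPL (median 23.2), where DPL replicate 11 held the highest value. CD9 rose by log2 0.69 ± 0.21 in DPL (adjusted p = 0.00807), but without DPL replicate 11 the change was 0.39 with an adjusted p of 0.0536, and limma on log2(RPKM + 1) did not call it (adjusted p = 0.115). Changes of CD164, of CD47, the "do not eat me" ligand of a macrophage receptor, and of CD58, the ligand of CD2, did not pass the test in any comparison with L.

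**Figure D3:**
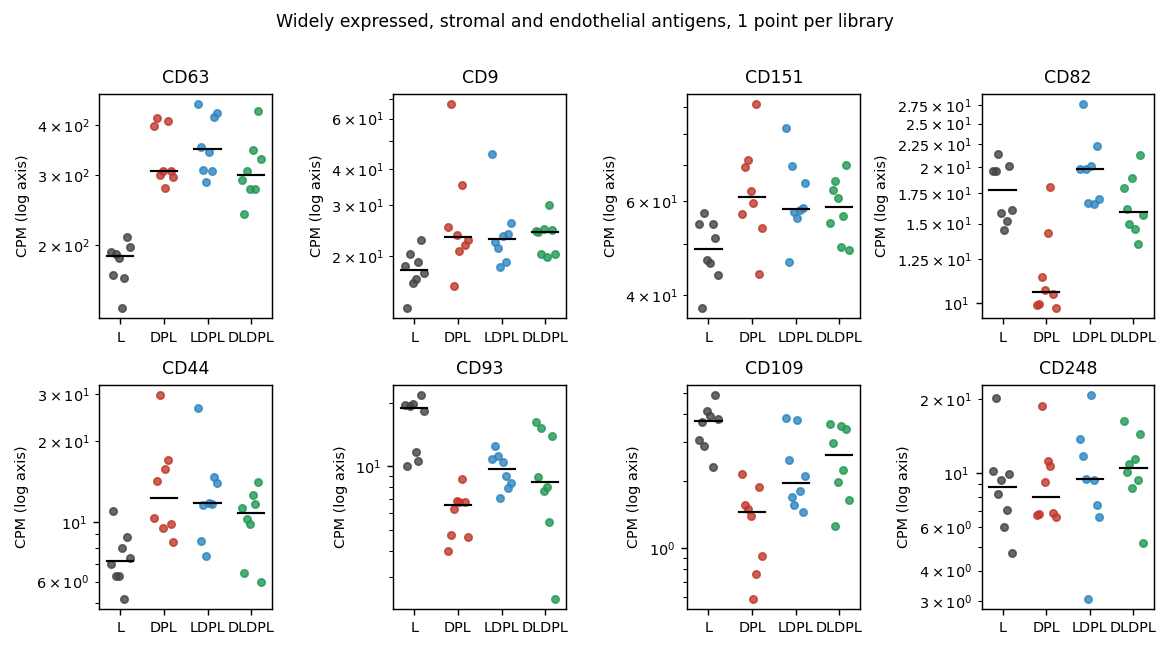
CPM on a log axis of 8 widely expressed, endothelial and stromal antigens, with 1 point per library and the group median as a line. CD63 in L (139 to 210 CPM) lies under all other libraries, and CD93 and CD109 in DPL lie under all L libraries.

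Both endothelial members fell in DPL. CD93, a C-type lectin-like receptor of endothelial cells, ranged from 10.0 to 21.8 CPM in L (median 18.8), from 3.97 to 8.72 in DPL (median 6.53), from 7.08 to 12.5 in LDPL (median 9.76) and from 2.37 to 16.2 in DLDPL (median 8.44). L and DPL did not overlap, while LDPL and DLDPL overlapped both. How many of all genes tested had no overlap between L and DPL is not given here. CD93 was 2.69-fold lower in DPL (log2 -1.43 ± 0.25, adjusted p = 3.72e-05), and fell by 0.76 in LDPL (adjusted p = 0.019) and by 0.75 in DLDPL (adjusted p = 0.0256). The DLDPL call was lost without L replicate 9 or DLDPL replicate 28 (adjusted p 0.0533 and 0.0573).

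CD109, a lipid-anchored protein that binds the TGF-beta receptor and is found on endothelium, platelets and activated T cells, ranged from 2.32 to 4.89 CPM in L (median 3.74) and from 0.59 to 2.16 in DPL (median 1.44), again without overlap. It fell by 1.40 on the log2 scale in DPL (SE 0.26, adjusted p = 6.42e-05). LDPL ranged from 1.45 to 3.85 CPM (median 1.96) and DLDPL from 1.25 to 3.61 (median 2.61), and neither was called against L by edgeR (log2 -0.62, adjusted p = 0.0595, and log2 -0.47, adjusted p = 0.178). DESeq2 (adjusted p = 0.0467) and limma on log2(RPKM + 1) (adjusted p = 0.0414) called CD109 lower in LDPL. DLDPL exceeded DPL by log2 0.93 ± 0.26 (adjusted p = 0.0328), a call lost (adjusted p 0.0602 to 0.0754) without DPL replicate 21, 23 or 30 or without DLDPL replicate 6, 18, 27 or 29. The LDPL difference from L was called (adjusted p 0.0245 to 0.0483) without L replicate 8, LDPL replicate 4 or 10, or DPL replicate 21.

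Other endothelial genes moved by less. Of 11 tested, 4 were lower and 1 higher in DPL than in L (4 and 0 without L replicate 2), against 18.9% and 19.1% of all genes. The median log2 change was -0.14 over the list against -1.42 for the 2 members. TIE1, an endothelial receptor tyrosine kinase, fell by 0.70 (adjusted p = 0.00651) and MCAM, an adhesion molecule of endothelium and pericytes, by 0.48 (adjusted p = 0.0172). In LDPL 3 of the 11 were lower than in L (against 14.7% of all genes) and in DLDPL 1 (against 10.3%). KDR, the main receptor for VEGF, changed by log2 -0.40 in DPL (adjusted p = 0.0753) and fell by 0.68 in LDPL (adjusted p = 0.0041). The summed level of the list was 50.9 to 92.4 CPM per kilobase in L and 38.6 to 95.2 in DPL, and its part in the 2 members' differences was not tested.

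Of the stromal members CD44, the main receptor for hyaluronan, rose in DPL and LDPL. It ranged from 5.19 to 11.0 CPM in L (median 7.17), from 8.45 to 29.8 in DPL (median 12.3), from 7.49 to 26.7 in LDPL (median 11.8) and from 5.96 to 14.1 in DLDPL (median 10.8), with overlap between all groups. The changes against L were log2 0.93 ± 0.24 in DPL (adjusted p = 0.00256), 0.83 ± 0.24 in LDPL (adjusted p = 0.00919) and 0.46 ± 0.24 in DLDPL (adjusted p = 0.176). By limma on log2(RPKM + 1) the LDPL call was lost (adjusted p = 0.0504) and the DPL call held (adjusted p = 0.0414), and with no filter on low values neither held (adjusted p 0.0728 and 0.0596). CD248 (endosialin, of pericytes and fibroblasts) and CD276 (an immune checkpoint protein of the B7 family) changed by log2 -0.20 to 0.19 against L, and none of these passed the test.

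Other stromal genes went the opposite way from CD44 in DPL. Of 9 tested, 5 were lower in DPL than in L and 0 higher (against 18.9% and 19.1% of all genes). Among the 5 were COL3A1 (collagen III, log2 -2.16 ± 0.30, adjusted p = 8.16e-07), NT5E (the CD73 ectonucleotidase, log2 -1.33, adjusted p = 7.49e-07) and COL1A2 (collagen I, log2 -1.49, adjusted p = 3.27e-05). In LDPL 4 of 9 were lower than in L (against 14.7% of all genes). Without L replicate 2 there were 2 of 9, COL3A1 and NT5E (against 13.9%). In DLDPL edgeR called 0 of 9 (against 21.9% of all genes), with 1 at an unadjusted p under 0.05 and 0 by DESeq2. Their summed level was 440 to 702 CPM per kilobase in L and 185 to 618 in DPL, and its part in the CD44 difference was not tested.

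Of the T and NK cell members, 4 of 9 tested were lower in DPL than in L (against 18.9% of all genes). In LDPL 2 of 9 were lower (against 14.7%) and in DLDPL 5 of 9 (against 10.3%), and 0 were higher in any group. By limma on log2(RPKM + 1) the counts were 5, 2 and 2, and in DLDPL the calls of CD3D, CD6 and CD2 were lost (adjusted p 0.0501, 0.0636 and 0.107). The median log2 change over the 9 was -1.2, -0.78 and -1.13 for the 3 groups in that order, beside -0.02, -0.03 and -0.02 over all genes tested. The 9 did not all fall together. CD247 changed by log2 0.56 in DPL (adjusted p = 0.195), -0.14 in LDPL (adjusted p = 0.799) and 0.09 in DLDPL (adjusted p = 0.879). CD96 changed by log2 0.41 in LDPL (adjusted p = 0.577). The other changes against L were negative. All 9 lie low: the highest of the 9 in any L library was CD2 with 378 reads.

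CD4, the coreceptor for class II MHC on helper T cells, ranged from 0.697 to 4.62 CPM in L (18 to 165 reads, median 1.92 CPM). The range was 0.0708 to 1.70 in DPL (median 0.644), 0.165 to 1.12 in LDPL (median 0.51) and 0.259 to 1.77 in DLDPL (median 0.647). All ranges overlapped, and L had the highest median. CD4 fell by 1.53 on the log2 scale in DPL (SE 0.44, adjusted p = 0.00634), by 1.86 in LDPL (SE 0.45, adjusted p = 0.00198) and by 1.44 in DLDPL (SE 0.44, adjusted p = 0.0164). Leaving out L replicate 2 made these changes -1.27 (adjusted p = 0.0227), -1.60 (adjusted p = 0.00693) and -1.18 (adjusted p = 0.0493), so that all 3 calls held.

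CD8A, a chain of the class I MHC coreceptor on cytotoxic T cells, ranged from 0.852 to 4.40 CPM in L (median 1.31), where L replicate 2 held 4.40 and the other 7 libraries at most 1.55. The range was 0.11 to 1.96 in DPL (median 0.362), 0.315 to 1.36 in LDPL (median 0.627) and 0.173 to 0.868 in DLDPL (median 0.395). The lowest L library thus lay near the highest DLDPL library. CD8A fell by 1.39 in DPL (adjusted p = 0.0122), by 1.2 in LDPL (adjusted p = 0.0338) and by 1.79 in DLDPL (adjusted p = 0.00373). Without L replicate 2 only the DLDPL call remained (log2 -1.38, adjusted p = 0.018), beside -0.97 in DPL (adjusted p = 0.0654) and -0.79 in LDPL (adjusted p = 0.152). The LDPL call was also lost without LDPL replicate 5, 8, 9 or 15 (lowest adjusted p 0.0521).

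CD3D, the delta chain of the CD3 complex that relays the T cell receptor signal, ranged from 0.237 to 2.63 CPM in L (median 0.864) and from 0.142 to 0.878 in DPL (median 0.443). It fell by 1.2 in DPL (adjusted p = 0.0122) and by 1.23 in DLDPL (adjusted p = 0.0178), and both calls were lost without L replicate 2 (log2 -0.83, adjusted p = 0.066, and log2 -0.85, adjusted p = 0.0839). In LDPL its change was log2 -0.86 (adjusted p = 0.0779), called without L replicate 4 (adjusted p = 0.0324).

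CD6, a scavenger-receptor-like protein that tunes T cell signalling, ranged from 0.232 to 2.24 CPM in L (median 0.635) and from 0.0649 to 0.516 in DPL (median 0.218). It fell by 1.58 in DPL (adjusted p = 0.019) and by 1.44 in DLDPL (adjusted p = 0.0459). Leaving out L replicate 2 gave log2 -1.09 (adjusted p = 0.0941) and -0.95 (adjusted p = 0.187). The DLDPL call was lost without any 1 of 13 libraries: L replicates 1, 2, 4, 9 and 10, DLDPL replicates 6, 20, 27, 28, 29 and 32, LDPL replicate 10 or DPL replicate 26 (lowest adjusted p 0.0506).

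CD2, an adhesion molecule of T and NK cells, ranged from 1.24 to 10.6 CPM in L (median 2.60) and from 0.783 to 2.24 in DLDPL (median 1.75). It fell by 1.12 in DLDPL (adjusted p = 0.0285), and by no called amount in DPL (log2 -0.75, adjusted p = 0.109) or LDPL (log2 -0.54, adjusted p = 0.275). The DLDPL call was lost (adjusted p 0.0545 to 0.168) without L replicate 2 (log2 -0.65) or without DLDPL replicate 6 or 28, and the DPL difference was called without DPL replicate 16 (log2 -1.02, adjusted p = 0.0282). CD96, an NK and T cell receptor of the nectin-binding family, was called only in the test over 4 groups (adjusted p = 0.03), with median levels of 0.581 CPM in LDPL, 0.376 in L, 0.176 in DLDPL and 0.107 in DPL. The LDPL minus DPL difference of CD96 (log2 1.75, adjusted p = 0.0828) was called without DPL replicate 16 or 23 (adjusted p 0.0485 and 0.0453), and the DPL minus L difference (log2 -1.34, adjusted p = 0.0604) by DESeq2 and limma and, in edgeR, without L replicate 5, DPL replicate 16 or 23, or DLDPL replicate 29 (adjusted p 0.0216 to 0.0466).

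Once L replicate 2 was left out, the T and NK antigens lower than in L numbered 1 of 9 in DPL (against 18.6% of all genes). They numbered 1 of 9 in LDPL (against 13.9%) and 2 of 9 in DLDPL (against 10.2%). With DPL replicate 16 left out as well, 4 of 9 were lower in DPL: CD4, CD8A, CD3D and CD96. Among 7 other T and NK genes tested, edgeR, DESeq2 and limma called 0 against L; at an unadjusted p under 0.05 edgeR gave 3 in DPL (1 of them higher), 0 in LDPL and 2 in DLDPL, and without L replicate 2 it called 1 higher in DPL (IL7R, the receptor of interleukin-7). Their medians were log2 -0.32 in DPL, -0.18 in LDPL and -0.59 in DLDPL, and their summed level was 1.74 to 12 CPM per kilobase in L (4.13 at most without L replicate 2), 1.68 to 7.16 in DPL, 2.11 to 5.71 in LDPL and 2.02 to 3.15 in DLDPL. SKAP1, a T cell adaptor, changed by log2 -1.05 in DPL (adjusted p = 0.0553). ITGAL, the alpha chain of the LFA-1 integrin of leukocytes, was lower than in L in DPL (log2 -1.24, adjusted p = 0.000193), LDPL (log2 -0.92, adjusted p = 0.00474) and DLDPL (log2 -1.13, adjusted p = 0.0012), while PTPRC, the CD45 phosphatase of all leukocytes, was not called in any of them (log2 -0.63 to -0.02).

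**Figure D4:**
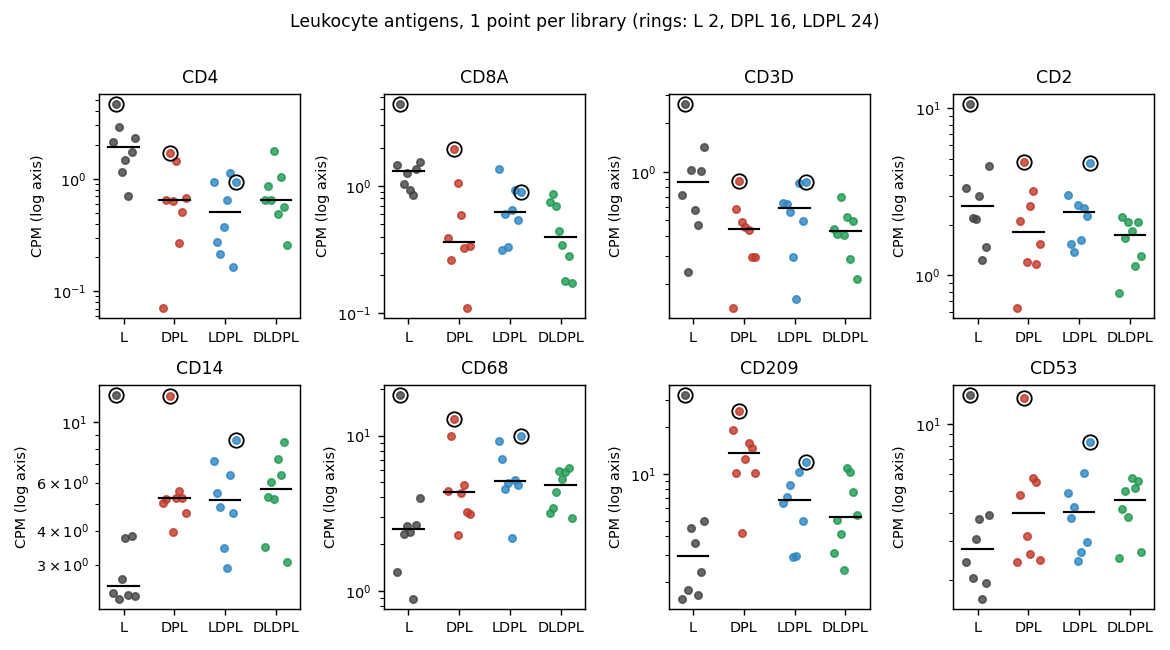
CPM on a log axis of 8 leukocyte antigens, with 1 point per library, the group median as a line and rings around L replicate 2, DPL replicate 16 and LDPL replicate 24. The L libraries lie high for CD4 and CD8A and, apart from L replicate 2, low for CD14, CD68 and CD209.

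Of the 7 macrophage and antigen presenting members tested, edgeR with all libraries called 0 higher than in L in any group. CD1B alone was called lower, in DPL and DLDPL. At an unadjusted p under 0.05, 1 was higher in DPL (CD209) and 1 in LDPL (CD83, a marker of mature dendritic cells). DESeq2 called 0 higher, and limma on log2(RPKM + 1) called CD209 in DPL. Once L replicate 2 was left out, 3 of 7 were higher than in L in each group. That library was singled out for its high levels of these and other leukocyte antigens, and was the highest L library for 6 of the 7. The 3 of 7 are therefore not independent of the choice to leave it out. LDPL replicate 24, the highest of its group for 4 of the 7, was not left out together with it. CD209 and, below, CD53 and CD69 fell outside the rule for named genes and were chosen after their values were seen. CD14, the coreceptor for bacterial lipopolysaccharide, ranged from 2.25 to 12.6 CPM in L (median 2.5), where the 7 libraries besides replicate 2 reached 3.83. The range was 3.94 to 12.5 in DPL (median 5.25), 2.92 to 8.62 in LDPL (median 5.18) and 3.07 to 8.42 in DLDPL (median 5.66). Every DPL library thus lay above those 7 L libraries, by a small margin (3.94 against 3.83 CPM). This too depends on setting L replicate 2 aside while keeping DPL replicate 16. With all libraries the ranges overlapped. With all libraries the changes of CD14 were log2 0.55, 0.43 and 0.49 and were not called. Without L replicate 2 CD14 was 2.11-fold higher in DPL (log2 1.08 ± 0.25, adjusted p = 0.000912), 1.95-fold in LDPL (adjusted p = 0.00383) and 2.03-fold in DLDPL (adjusted p = 0.00329).

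CD68, a lysosomal glycoprotein of macrophages, ranged from 0.89 to 18.3 CPM in L (median 2.5), where the 7 libraries besides replicate 2 reached 3.96. Medians were 4.33 CPM in DPL, 5.09 in LDPL and 4.79 in DLDPL. With all libraries the changes of CD68 were log2 0.36, 0.46 and 0.09, and without L replicate 2 they were 1.26 (adjusted p = 0.00376), 1.37 (adjusted p = 0.00277) and 1.0 (adjusted p = 0.0321). The sign in DLDPL also turned, to -0.05 and -0.06, without L replicate 1 or 8.

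CD209, a C-type lectin of dendritic cells and tissue macrophages, showed the widest gap. L replicate 2 held 32.4 CPM and the other 7 L libraries 1.57 to 4.94 (median 2.33), while DPL ranged from 4.16 to 25.6 (median 13.6), LDPL from 2.89 to 11.9 (median 6.81) and DLDPL from 2.41 to 11.0 (median 5.26). With all libraries its changes against L were log2 1.08, 0.05 and -0.11 and were not called by edgeR. Without L replicate 2 they were 2.26 ± 0.37 in DPL (4.79-fold, adjusted p = 1.75e-05), 1.23 in LDPL (adjusted p = 0.0111) and 1.07 in DLDPL (adjusted p = 0.0328), and DLDPL lay under DPL (log2 -1.19, adjusted p = 0.0388).

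CD1B, which presents lipid antigens to T cells, was lower in DPL (log2 -1.38, adjusted p = 0.0313) and DLDPL (log2 -1.41, adjusted p = 0.0436). L replicate 2 held 4.65 CPM and the other 7 L libraries 0.285 to 1.63, against 0.15 to 0.826 in DPL. Without it the changes were -0.56 (adjusted p = 0.333) and -0.58 (adjusted p = 0.371), and limma on log2(RPKM + 1) called neither (adjusted p 0.103 and 0.196). The DPL call was also lost without L replicate 10 or DPL replicate 19, 21 or 30 (lowest adjusted p 0.0503), and the DLDPL call without L replicate 10 or DLDPL replicate 6, 20, 25, 27, 28, 29 or 32 (lowest adjusted p 0.0517). CD1 and CD300 genes belong to families of similar genes, and the sources used here do not say how reads shared between copies were treated, which leaves these values uncertain.

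Without L replicate 2 the members higher than L numbered 9 in DPL, 5 in LDPL and 4 in DLDPL, and those lower 4, 2 and 3. With DPL replicate 16 left out as well, 6 of 35 members tested were higher and 7 lower in DPL. The counts without L replicate 2 stand against background shares of 37.2% in DPL (18.6% higher, 18.6% lower), 28.3% in LDPL (14.4% and 13.9%) and 21.8% in DLDPL (11.7% and 10.2%). Of the 7 macrophage antigens 3 were higher in each group (CD14, CD68 and CD209), and with DPL replicate 16 also left out the DPL changes of these were log2 0.83, 0.97 and 2.07 (adjusted p 0.00327, 0.0154 and 5.07e-05). Among the 11 other macrophage genes tested, edgeR, DESeq2 and limma called 0 against L with all libraries, and 0 had an unadjusted p under 0.05. Without L replicate 2, edgeR called 3 of 11 higher in DPL, 2 in LDPL and 1 in DLDPL, and 0 lower. MRC1, the mannose receptor of tissue macrophages, changed by log2 0.19 in DPL, 0.58 in LDPL and 0.59 in DLDPL, and was among the called ones in LDPL and DLDPL without L replicate 2. The summed level of that list was 25.0 to 54.4 CPM per kilobase in L without replicate 2, which held 151, and 43.0 to 101 in DPL, 33.5 to 103 in LDPL and 36.8 to 63.9 in DLDPL. Neutrophil genes had too few reads to test (4 of 4), with ELANE and MPO at 0 in DPL and ELANE also at 0 in LDPL.

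**Figure D5:**
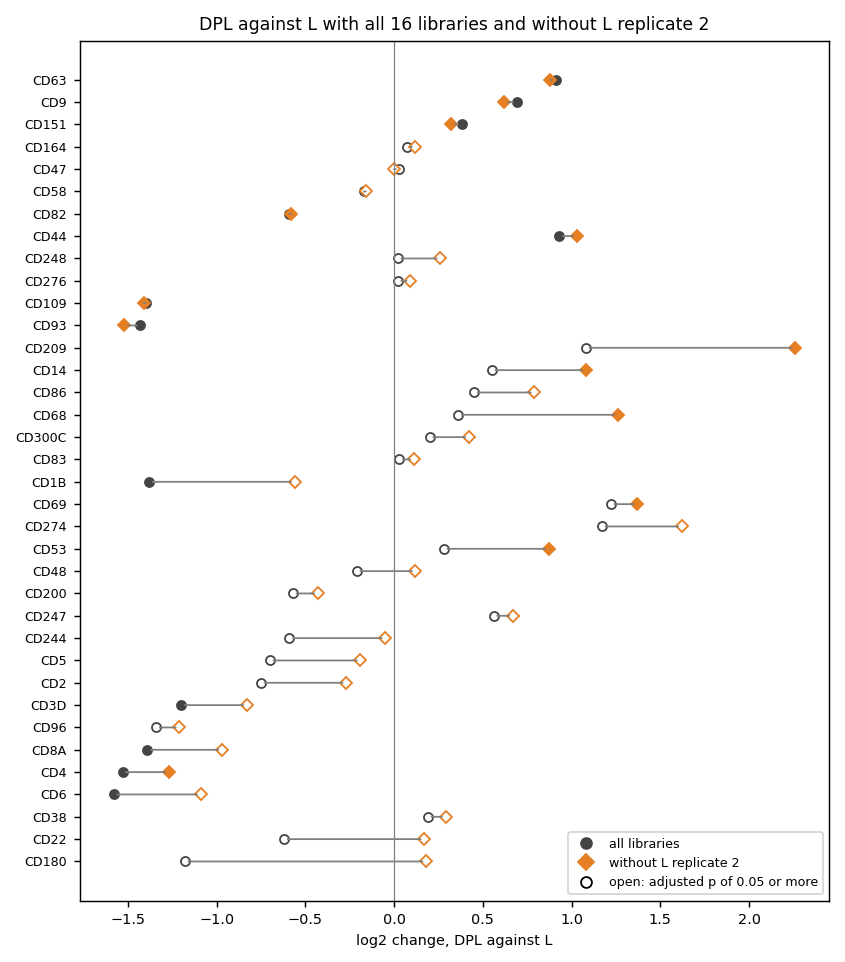
Log2 change of DPL against L for the 36 tested CD antigen genes with all libraries (circles) and without L replicate 2 (diamonds), filled where the adjusted p was under 0.05. CD14, CD68 and CD209 move right and become filled, CD8A, CD3D, CD6 and CD1B move towards 0 and become open, and CD63, CD82, CD44, CD93 and CD109 keep their places.

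In the remaining lineages edgeR called no member with all libraries; at an unadjusted p under 0.05 in comparisons with L there was 1 of 5 (CD69 in DPL, also called by DESeq2) and 1 of 3 (CD180, lower in LDPL and in DLDPL). Between the other groups CD200, a membrane ligand that dampens myeloid cells, and CD48, a ligand of CD244, also had unadjusted p-values under 0.05: CD200 for DLDPL minus DPL (log2 1.22, adjusted p = 0.0692) and DLDPL minus LDPL (log2 0.78, adjusted p = 0.659), and CD48 for DLDPL minus LDPL (log2 -0.81, adjusted p = 0.596). Of 5 antigens of several leukocytes, CD53, a leukocyte tetraspanin, held 13.5 CPM in L replicate 2 and 1.66 to 3.92 in the other L libraries, with medians of 3.99 in DPL, 4.03 in LDPL and 4.58 in DLDPL. Its change in DPL was log2 0.28 with all libraries and 0.87 (adjusted p = 0.0308) without L replicate 2, a call lost with DPL replicate 16 also left out (log2 0.48, adjusted p = 0.164). CD69, an early activation antigen of lymphocytes, changed by log2 1.22 in DPL, called without L replicate 2 (log2 1.37, adjusted p = 0.0432) and without any 1 of DPL replicates 7, 19 and 26, LDPL replicate 14 and DLDPL replicates 6 and 32 (adjusted p 0.0337 to 0.0478 over the 7), but not with L replicate 2 and DPL replicate 16 both left out (log2 1.26, adjusted p = 0.0708). CD69 rested on 2 to 14 reads per L library. The 3 B cell antigens tested changed by log2 -1.18 to 0.19 in DPL, and CD180, a Toll-like receptor homologue of B cells, held 4.26 CPM in L replicate 2 against at most 0.735 in the other L libraries.

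Gene pairs fixed for their shared cell type varied together within groups. Of 10 pairs fixed, 3 had both genes tested, and correlations of log2 CPM were taken over the 32 libraries after subtracting group means, with two-sided permutation tests of 100000 resamples adjusted over the 3 pairs. CD14 and CD68 gave r = 0.83 and rho = 0.70 (permutation p = 1e-05, the smallest possible, and 2e-05; adjusted 1.5e-05 and 3e-05), and r = 0.66 without L replicate 2 and DPL replicate 16. CD248 and PDGFRB, a receptor of pericytes and fibroblasts, gave r = 0.81 and rho = 0.75 (permutation p = 1e-05 for both; adjusted 1.5e-05 and 3e-05), and r = 0.75 without LDPL replicate 9 and L replicate 2. CD2 and CD8A gave r = 0.50 and rho = 0.38 (permutation p = 0.00801 and 0.0407, adjusted the same), and r = 0.41 without L replicate 2 and DPL replicate 7.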

How the data were processed

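Per the labels' protocols, a tissue RNA kit was used on frozen muscle, and the library kit keeps no strand, which merges reads of overlapping or antisense genes. Bowtie 0.12.2, Cufflinks and the mouse build mm8 are named in the submitters' processing notes, while the files list pig Ensembl identifiers. Which pig annotation was used is not given in the sources used here, and no positions or sequences are printed. The authors deposited, per library, raw counts of uniquely mapped reads, which add up to the header total in all 32 libraries, and RPKM. The deposited RPKM values equal the counts per kilobase of listed length and per 1000000 reads within 2.2e-14. The deposited length of 9 of the 47 members varied from file to file. Genes not listed in a file were given a count of 0.

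Counts were filtered with filterByExpr (minimum count 10, minimum total 15; 12821 genes with 99.97% of the reads), scaled by TMM and fitted with edgeR 4.0.16 (R 4.3.3), 1 quasi-likelihood model of 4 groups over 32 libraries with 28 residual degrees of freedom. All 6 pairs and the 4 groups together were tested, with Benjamini-Hochberg adjustment over all genes. The standard error is the log2 change divided by the square root of F. The script was tested on simulated data. No 2 libraries of a group agreed within sampling noise (smallest chi-square per degree of freedom 32.5). Alternatives were upper quartile scaling, no filter, limma 3.58.1 on log2(RPKM + 1) and log2(RPKM + 0.1), DESeq2 1.42.0, and leaving out each library; leaving out L replicate 2 and DPL replicate 16 together was chosen after seeing the data.

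The rule named each member called in any test, a fixed panel of antigens, and up to 3 genes per marker list by the test over 4 groups. Members and lists were chosen with earlier results of these data known. Lists of red cell, adipocyte, and pericyte and smooth muscle genes were also tested against L. In DPL 0 of 2, 0 of 3 and 5 of 7 (2 higher, 3 lower) were called, against 38.0% of all genes. In LDPL the counts were 0 of 2, 0 of 3 and 3 of 7 (2 higher, 1 lower), against 29.6%. In DLDPL they were 0 of 2, 2 of 3 (both higher, and 3 of 3 without L replicate 2) and 6 of 7 (4 higher, 2 lower), against 21.9%. The part of these lists in the differences of the members was not tested. The values of 1 member with too few reads to test are not reported here.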

Additional observations from a re-analysis of the deposited data

Results flagged for a closer look

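Of 68 sets of 8 libraries (17 named members in 4 groups), 4 had a highest or lowest library far from the others. Far means a gap of over 0.526 of the group's whole range, on log2 CPM with a prior count of 2. Chance gives such a gap in about 1 in 20 sets of normally distributed values, and 4 of 68 is near that rate. CD14 held 12.6 CPM in L replicate 2 against 2.25 to 3.83 in the other 7 L libraries, and 12.5 CPM in DPL replicate 16 against 3.94 to 5.58 in the other 7 DPL libraries. CD8A held 4.4 CPM in L replicate 2 against 0.852 to 1.55 in the others. CD9 held 45.2 CPM in LDPL replicate 4 against 18.3 to 26.1.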

How the results depend on the processing

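Of the 29 called differences of single genes, 12 kept their call in every alternative run, and over 1143 recalculations 1037 kept the call, 106 lost it and 0 changed sign. The cause of the changes below was not tested. The number of members called between DLDPL and L was 8, and 4, 5 and 4 by limma on log2(RPKM + 1), on log2(RPKM + 0.1) and on log2(RPKM + 1) with no filter; between LDPL and DPL it was 1, and 2 by limma on log2(RPKM + 0.1), by DESeq2 and without L replicate 2 and DPL replicate 16 together. Leaving out 1 library gave 4 to 9 members for DLDPL and L (5 without DLDPL replicate 6, 4 without DLDPL replicate 28), 1 to 2 for LDPL and DPL (2 without DPL replicate 16 or 23), 0 to 3 for DLDPL and DPL (0 without DLDPL replicate 6 or 29, 1 without DLDPL replicate 18, 25 or 27 or DPL replicate 21, 23 or 30), 4 to 8 for LDPL and L and 11 to 15 for DPL and L. The change of CD209 in DLDPL against L, -0.11, was 0.40, 0.55 and 0.40 in the 3 limma fits, 1.07 without L replicate 2 and DPL replicate 16 together, and -0.29 to 1.07 with 1 library left out; in LDPL against L, 0.05, it was -0.03 under upper quartile scaling and -0.11 to 1.23 with 1 library left out. With 1 library left out, CD53 gave -0.09 to 0.87 in DPL and -0.07 to 0.70 in LDPL against L, and CD68 -0.06 to 1.0 in DLDPL against L. The correlation of CD2 and CD8A was 0.80 on log2(RPKM + 1). The median change of all genes between DPL and L was -0.02, and -0.10 under upper quartile scaling, -0.12 by limma on log2(RPKM + 1) and -0.18 on log2(RPKM + 0.1). L and LDPL share 5 replicate numbers, but same-numbered libraries did not deviate together (correlations -0.115 to 0.075, 0 of 5 over 0.1, 1 of 5 best with its own number); on those libraries a replicate block gave 3 members called and no block 5. Members with few reads per library limit the precision of the T and B cell antigens.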
